A study of Mus musculus with 18 samples.

Results

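The 8 integrin genes Itga1, Itga2, Itga3, Itga5, Itga6, Itgav, Itgb1 and Itgb5 were followed in cultured mouse hepatocytes, the main cell type of liver, growing on collagen I. The genes were chosen by name, with earlier results of these data known. All 27 of their probe sets were used, out of 45037 probe sets that were not controls. As genes they were 8 of 18193. Cells received IL-6, an inducer of the acute-phase response through STAT3, at 40 ng/ml from 0 h, and HGF, the ligand of the receptor Met, was added at 40 ng/ml from 4 h. The arrays comprised 8 with IL-6 plus HGF (5, 6, 7, 8, 9, 10, 12 and 24 h), 4 with IL-6 (1, 2, 3 and 4 h), 1 untreated control at -5 h and 5 later untreated controls (0, 4, 8, 12 and 24 h). All cells came from male C57BL/6N mice aged 8 to 12 weeks, from 1 animal or a pool of several per experiment, and were kept for 24 h in serum-free medium with 100 nM dexamethasone. A further 4 h in medium without it came directly before stimulation, so by its hour the -5 h control precedes that change of medium.

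Integrins are receptors for the extracellular matrix, each made of an alpha and a beta chain, and they tie the matrix outside the cell to actin inside it. The beta chain encoded by Itgb1 pairs with the alpha chains encoded by Itga1 and Itga2 to form collagen receptors, by Itga3 and Itga6 to form laminin receptors, and by Itga5 to form the main fibronectin receptor. The alpha chain of Itgav pairs with several beta chains, among them those of Itgb1 and Itgb5, and binds matrix proteins such as vitronectin. Cytosolic proteins such as talins and kindlins switch integrins to a binding state, and the bound receptors signal through kinases such as focal adhesion kinase and Src.

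Promoter windows of Itga2 and Itgb1, from 250 bases before to 50 bases after the RefSeq start site, are given because these 2 genes had the most similar time courses of the 8 (Pearson r = 0.90 over 18 arrays, which share times, stimuli and normalization). Both were highest on the same array, that of 24 h of IL-6 plus HGF (7.39 and 12.22), and the correlation without it was not taken. Windows were taken from RefSeq in build GRCm38.p6, where 7 of the 8 genes matched. The Itga2 window is chr13:114932051-114932350 on the minus strand and the Itgb1 window is chr8:128685404-128685703 on the plus strand, both 5′ to 3′. Capitals mark matches, on either strand, to GGGCGG (GC box) or CATTCC (the core bound by TEAD factors).
Itga2: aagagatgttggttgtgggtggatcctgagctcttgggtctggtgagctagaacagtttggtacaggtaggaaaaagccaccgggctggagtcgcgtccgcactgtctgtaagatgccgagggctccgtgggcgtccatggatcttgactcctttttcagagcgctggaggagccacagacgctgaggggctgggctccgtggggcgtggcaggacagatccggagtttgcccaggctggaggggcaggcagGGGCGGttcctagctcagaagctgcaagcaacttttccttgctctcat
Itgb1: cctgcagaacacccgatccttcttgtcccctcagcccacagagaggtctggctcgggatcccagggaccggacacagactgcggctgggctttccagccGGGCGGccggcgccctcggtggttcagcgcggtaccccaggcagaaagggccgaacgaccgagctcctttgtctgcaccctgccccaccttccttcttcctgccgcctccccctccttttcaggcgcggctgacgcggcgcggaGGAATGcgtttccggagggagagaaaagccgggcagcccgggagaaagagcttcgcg
Each window held 1 GC box, a motif found in 35.7% of all 32851 promoter windows, and the Itgb1 window held 1 TEAD match, read on the opposite strand as GGAATG, which 14.7% of windows held. Neither window held the AP-1 letters TGANTCA (7.8% of windows) or the STAT letters TTCNNNGAA (8.3% of windows). These matches describe the letters and say nothing of binding.

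Values were log2 signals, comparable between arrays within a probe set but not between probe sets or genes. The arrays had close medians (5.47 to 5.57) and mean correlations with each other of 0.985 to 0.994, lowest on both 24 h arrays. The next lowest, 0.987, was that of the 10 h array of IL-6 plus HGF. A probe set is called dim here if its mean fell under the 40th percentile of mean signal over genes (5.87), which held for 8 of the 27 integrin probe sets and left 19 above it. Each gene is represented in the tests by its brightest probe set. Markers of hepatocytes averaged 10.74 to 12.07 with IL-6 plus HGF, 12.25 to 12.44 with IL-6, 12.55 in the -5 h control and 11.25 to 12.43 in the later controls, and 0 of the 9 measured were dim. Of the markers of other liver cells measured, 3 of 13 were dim for Kupffer cells, 0 of 12 for endothelial cells, 6 of 13 for stellate cells, 3 of 7 for cholangiocytes and 7 of 8 for leucocytes. In such bulk samples, fewer cells of a type and less RNA per cell cannot be told apart. Each condition and hour was measured on 1 array, and no source says that dishes came from separate animals, so every p-value reflects only how these arrays spread.

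At the matched hours, 8, 12 and 24 h, 2 of the 8 integrin genes passed an adjusted p of 0.05 (limma, hour as a block, Benjamini-Hochberg over all genes): Itga6 rose and Itga1 fell under both factors together. Of all genes 9.00% passed, 2.53% higher and 6.46% lower, so the share of 2 in 8 rests on few genes. The median difference of the 8 was 0.15 log2 against 0.01 over all genes, with 7 positive and 1 negative. Of the 7, Itga5 (0.02 ± 0.075, SE) and Itgb5 (0.037 ± 0.071, SE) were smaller than their SE. Both turned negative with each array centred on its median (-0.02 and -0.003). The share of positive differences over all genes was not taken. The nuclear RNA Malat1 also differed at these hours, at 11.86, 10.69 and 10.9 on the 8, 12 and 24 h arrays of IL-6 plus HGF, against 9.62, 9.35 and 9.81 in the controls, and its part in the differences of Itga6, Itga1, Itga2 and Itgb1 was not tested. In the first 4 h, IL-6 was compared with the controls at 0 and 4 h, and 0 of the 8 passed, against 0.0220% of all genes (4 passing, 656 at an unadjusted p under 0.05, and 2 of the 8). Malat1 was 11.53, 11.36, 11.24 and 11.65 at 1 to 4 h of IL-6, against 11.52 and 9.62 in the controls at 0 and 4 h, and its part there was not tested either. Over 5 to 24 h of IL-6 plus HGF, 3 of the 8 had a slope past the threshold, against 11.1% of all genes: Itga2 and Itga3 rose with time (6.27% of all genes rose) and Itga6 fell (4.84% fell).

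**Figure D1:**
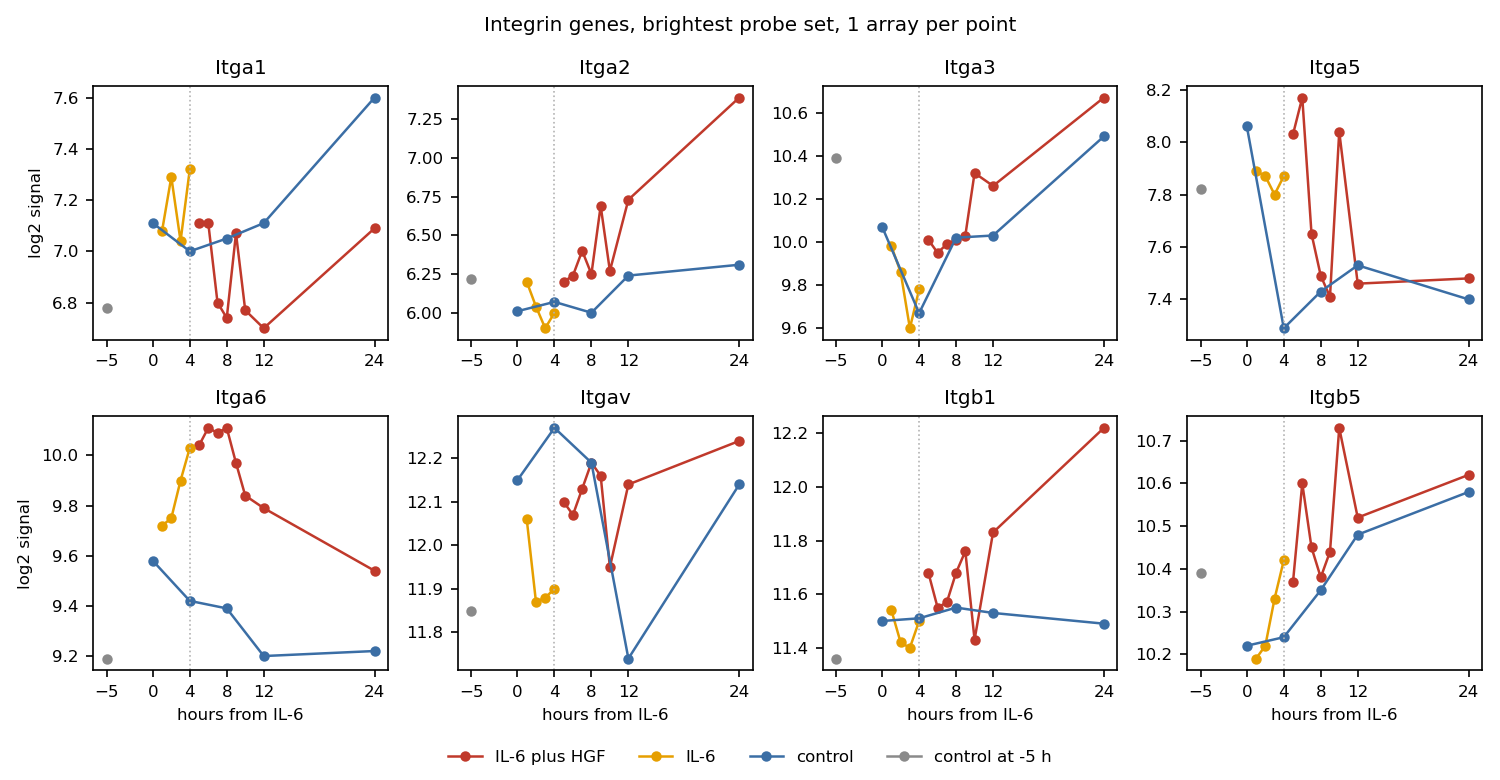
Log2 signal of the brightest probe set of each gene (y axis, its own range per panel) against hours from IL-6 (x axis), with 1 point per array and a dotted line at 4 h, when HGF was added. Itga6 lies above the control line at every stimulated hour, Itga2 and Itgb1 peak at 24 h of IL-6 plus HGF, and Itga1 is lower than control at 8, 12 and 24 h.

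Itga6, on chromosome 2 (71786886 to 71858427, GRCm38.p6), encodes the alpha chain of laminin receptors and also pairs with the beta chain of hemidesmosomes. Its log2 signal with IL-6 plus HGF was lowest at 9.54, had a median of 10.01 and was highest at 10.11. With IL-6 it was 9.72, 9.75, 9.90 and 10.03 at 1, 2, 3 and 4 h, against 9.19 in the -5 h control and 9.58, 9.42, 9.39, 9.20 and 9.22 at 0, 4, 8, 12 and 24 h in the later controls. All 4 IL-6 arrays lay above all 5 later controls, which held for 1.95% of all genes and for no other of the 8. The IL-6 plus HGF range of this brightest probe set overlapped the control range only through its 24 h array. In the second probe set the ranges did not overlap, at 8.52 to 9.22 against 8.05 to 8.46 in the later controls. In the brightest probe set the 8 h pair was 10.11 with IL-6 plus HGF against 9.39 in control. The 12 h pair was 9.79 against 9.20, and the 24 h pair 9.54 against 9.22. The pair difference was thus positive at each hour and smallest at 24 h.

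The matched-hours difference of Itga6 was 0.55 ± 0.10 log2 (SE, 3 pairs), or 1.46-fold, with a limma adjusted p of 0.0201. The adjusted p was 0.0906 without the 8 h pair and 0.0817 without the 12 h pair, and it was 0.178 with no hour block. The second probe set gave the same size of difference, 0.55, with an adjusted p of 0.0683 over all probe sets, and the 2 probe sets correlated at r = 0.94 over the 18 arrays. In the first 4 h the difference, IL-6 minus the controls at 0 and 4 h, was 0.35 ± 0.14 (SE, 4 against 2 arrays) and did not pass (unadjusted p 0.0238, limma adjusted p 1); against all 5 later controls it was 0.49 with a limma adjusted p of 0.12. Under IL-6 plus HGF the slope was -0.27 ± 0.06 log2 per doubling of the hour (SE, 8 arrays, limma adjusted p 0.0117), and without the 24 h array -0.24 with an adjusted p of 0.297. In controls from 0 to 24 h the slope per doubling of the hour plus 1 was -0.08 ± 0.03 (SE, 5 arrays, limma adjusted p 0.15). Controls at 4 to 24 h had a slope of -0.09 ± 0.05 per doubling of the hour (SE, 4 arrays). The difference between the slopes of both conditions, taken against these 4 arrays, did not pass (-0.18, limma adjusted p 0.718).

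Itga3, on chromosome 11 (95044475 to 95076844), encodes the alpha chain of the other laminin receptor measured here. It was lowest at 9.95, had a median of 10.02 and was highest at 10.67 with IL-6 plus HGF, and was 9.98, 9.86, 9.60 and 9.78 with IL-6 at 1 to 4 h. The -5 h control was 10.39 and the later controls were 10.07, 9.67, 10.02, 10.03 and 10.49. The 24 h array was the highest in both conditions, and the groups overlapped. The slope under IL-6 plus HGF was 0.33 ± 0.06 log2 per doubling of the hour (SE, 8 arrays, limma adjusted p 0.00622), which without the 24 h array was 0.26 with an adjusted p of 0.293. Controls at 4 to 24 h had a slope of 0.30 ± 0.06 (SE, 4 arrays) in the joint fit of both conditions, and the slopes differed by 0.03 ± 0.08 (SE, 12 arrays, limma adjusted p 1). With the 0 h control included, the control slope per doubling of the hour plus 1 was 0.07 ± 0.06 (SE, 5 arrays, limma adjusted p 0.55). The 24 h array exceeded the 12 h array by 0.41 with IL-6 plus HGF and by 0.46 in control, and the 3 probe sets correlated at 0.86 to 0.94. At the matched hours Itga3 differed by 0.13 ± 0.08 (SE, 3 pairs, limma adjusted p 0.365).

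**Figure D2:**
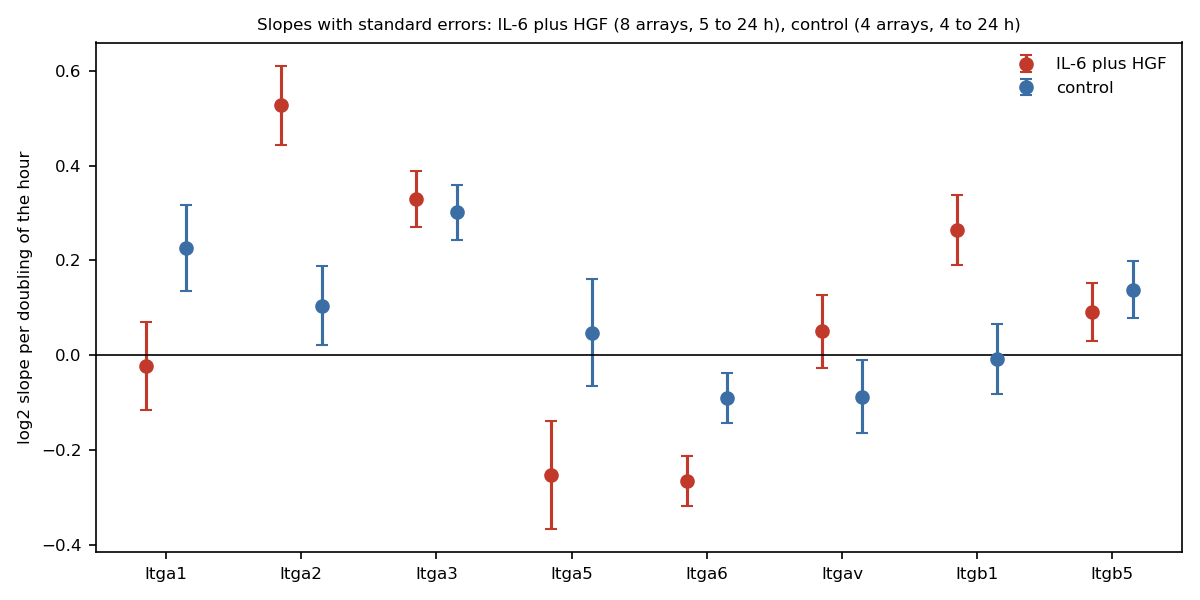
Slope of log2 signal per doubling of the hour (y axis) with its standard error for each gene, from 8 IL-6 plus HGF arrays (red, 5 to 24 h) and 4 control arrays (blue, 4 to 24 h). Itga2 and Itgb1 have a steeper positive slope with IL-6 plus HGF, while Itga3 has slopes of 0.33 and 0.30.

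Itga2, on chromosome 13 (114833081 to 114932100), encodes the alpha chain of a collagen receptor found on epithelial cells and platelets, and has 1 probe set, close to the dim line. With IL-6 plus HGF it was lowest at 6.20, had a median of 6.33 and was highest at 7.39, reached at 24 h. It was 6.20, 6.04, 5.90 and 6.00 with IL-6 at 1 to 4 h, 6.22 in the -5 h control and 6.01, 6.07, 6.00, 6.24 and 6.31 in the later controls. The 24 h array stood 0.66 above the next highest IL-6 plus HGF array, which was that of 12 h, and the controls gained 0.07 over the same hours. The slope under IL-6 plus HGF was 0.53 ± 0.09 log2 per doubling of the hour (SE, 8 arrays, limma adjusted p 0.00422), and 0.35 without the 24 h array, with an adjusted p of 0.301. The slope exceeded that of control by 0.42 ± 0.12 (SE, 12 arrays) and did not pass over all genes (unadjusted p 0.00366, limma adjusted p 0.387), where 0.0989% of genes passed and 0 of the 8 did. Without the 24 h array of IL-6 plus HGF that difference was 0.25.

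At the matched hours Itga2 had pair differences of 0.26, 0.49 and 1.08 log2 at 8, 12 and 24 h. Their mean of 0.61 ± 0.15 (SE, 3 pairs), or 1.53-fold, was the largest of the 8 in size but did not pass (limma adjusted p 0.0585). Without the 24 h pair it was 0.37 (limma adjusted p 0.117). It passed with dim genes left out (limma adjusted p 0.046), with an intensity trend and robust variance (0.0446) and with a spline of the hour over 17 arrays (0.48, adjusted p 0.00742).

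Itga1, on chromosome 13 (114958079 to 115101964), encodes the alpha chain of the other collagen receptor, which in liver is known from endothelial and stellate cells as well as hepatocytes. Its log2 signal was lowest at 6.70, had a median of 6.94 and was highest at 7.11 with IL-6 plus HGF, and was 7.08, 7.29, 7.04 and 7.32 with IL-6 at 1 to 4 h. The -5 h control was 6.78, against 7.11, 7.00, 7.05, 7.11 and 7.60 in the later controls. The groups overlapped over all hours, but in each matched pair the IL-6 plus HGF array was the lower one, by 0.30, 0.40 and 0.51 log2. The pairs were 6.74 against 7.05 at 8 h, 6.70 against 7.11 at 12 h, and 7.09 against 7.60 at 24 h.

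The matched-hours difference of Itga1 was -0.41 ± 0.08 log2 (SE, 3 pairs, 1.33-fold lower, limma adjusted p 0.0279). Leaving out the 8, 12 or 24 h pair gave adjusted p of 0.0673, 0.105 and 0.108, and the call also ended with the mean of both probe sets (-0.27, adjusted p 0.0573), with no hour block (0.407), over 17 arrays in 4 cells (0.12) and with the spline (0.116). The second probe set was dim. Of all genes 2.53% passed higher and 6.46% lower at the matched hours. Among the 12 endothelial markers 9 differed in the same direction at these hours, and Clec4g (-0.70, limma adjusted p 0.029) and Oit3 (-0.53, limma adjusted p 0.0132) fell, while the endothelial marker average ranged over 6.65 to 7.05 with IL-6 plus HGF, 6.77 to 7.15 with IL-6, 6.89 in the -5 h control and 6.87 to 7.22 in the later controls. Among the 13 stellate markers 8 were lower, 0 of them past the threshold, and Vim rose (0.37, limma adjusted p 0.0407); their average was 6.54 to 6.71 with IL-6 plus HGF, 6.47 to 6.56 with IL-6, 6.45 in the -5 h control and 6.55 to 6.85 in the later controls. The stellate markers Lrat, Pdgfrb, Col1a1, Lum, Hand2 and Ngfr were dim. The part of these cells in the difference of Itga1 was not tested.

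**Figure D3:**
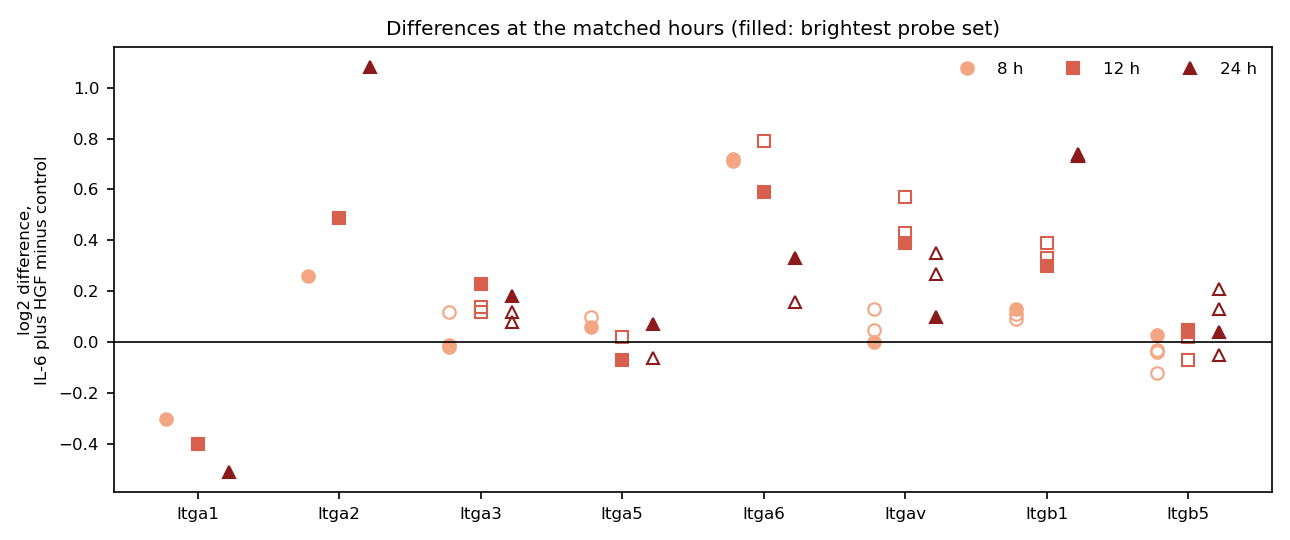
Log2 difference, IL-6 plus HGF minus control (y axis), at 8 h (circles), 12 h (squares) and 24 h (triangles) for each gene, 1 pair of arrays per symbol. Filled symbols are the brightest probe set and open ones the other probe sets above the dim line. All 3 pairs are negative for Itga1 and positive for Itga2, Itga6 and Itgb1.

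Itgb1, on chromosome 8 (128685654 to 128733579), encodes the beta chain shared by the collagen, laminin and fibronectin receptors. It was lowest at 11.43, had a median of 11.68 and was highest at 12.22 with IL-6 plus HGF, where the 24 h array was the top one. It was 11.54, 11.42, 11.40 and 11.50 with IL-6 at 1 to 4 h, 11.36 in the -5 h control, and 11.50, 11.51, 11.55, 11.53 and 11.49 in the later controls. The later controls thus spanned little, and only the 10 h array of IL-6 plus HGF lay below them. The 3 probe sets above the dim line correlated at 0.95 to 0.96, and differed at the matched hours by 0.39 to 0.41.

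The matched-hours difference of Itgb1 was 0.39 ± 0.12 log2 (SE, 3 pairs, 1.31-fold) and did not pass (limma adjusted p 0.106), with pair differences of 0.13, 0.30 and 0.73 at 8, 12 and 24 h. Without the 24 h pair it was 0.22 (limma adjusted p 0.295). Its slope under IL-6 plus HGF was 0.26 ± 0.08 log2 per doubling of the hour (SE, 8 arrays, limma adjusted p 0.0647). Without the 10 h array the slope was 0.28 and passed (limma adjusted p 0.00719), and without the 24 h array it was 0.08 (limma adjusted p 0.832). It also passed in other settings, with the hour in place of its logarithm (limma adjusted p 0.0214) and with the mean of all probe sets (0.034) among them. The 10 h array was the highest of all for Malat1, at 12.68, with the other IL-6 plus HGF arrays at 9.16 to 11.99, the -5 h control at 11.04 and the later controls at 9.35 to 11.52, and its part in the values of that array was not tested. The slope exceeded that of control by 0.27 ± 0.10 (SE, 12 arrays, unadjusted p 0.0223, limma adjusted p 0.656), and by 0.09 without the 24 h array of IL-6 plus HGF.

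Markers of cell identity moved at the same hours. At the matched hours 2.53% of all genes passed higher and 6.46% lower. In the slope under IL-6 plus HGF 6.27% of all genes rose and 4.84% fell. Among 7 measured cholangiocyte markers 6 were positive at the matched hours, and Cldn4 (1.16, limma adjusted p 0.0158) and Sox9 (0.55, limma adjusted p 0.00943) rose. Their average was 6.48 to 6.88 with IL-6 plus HGF, 6.27 to 6.40 with IL-6, 6.02 in the -5 h control and 6.28 to 6.50 in the later controls, and Krt7, Cftr and Muc1 were dim. In the slope under IL-6 plus HGF, Krt19 (1.02, limma adjusted p 0.00898) and Cldn4 (0.49, 0.00471) rose and Sox9 (-0.43, 0.0441) fell. Of 9 hepatocyte markers, which had a median of -0.33 at the matched hours, 4 fell (Asgr1, Cps1, Hnf4a and Tat) and 1 rose (Fgb). All 13 Kupffer cell markers were negative at the matched hours, with a median of -0.17 and 1 past the threshold. Of 8 leucocyte markers, 7 of them dim, 7 were positive and 1 negative, with a median of 0.15 and 0 past the threshold. The part of these markers in the values of Itga2, Itga3, Itga6 and Itgb1 was not tested.

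Itga5, on chromosome 15 (103344286 to 103366791), encodes the alpha chain of the main fibronectin receptor. It was lowest at 7.41, had a median of 7.57 and was highest at 8.17 with IL-6 plus HGF, and was 7.89, 7.87, 7.80 and 7.87 with IL-6 at 1 to 4 h. The -5 h control was 7.82 and the later controls were 8.06, 7.29, 7.43, 7.53 and 7.40. High values were thus those of the -5 and 0 h controls, the IL-6 hours and the 5, 6 and 10 h arrays, and the groups overlapped. The control slope of -0.13 ± 0.05 log2 per doubling of the hour plus 1 (SE, 5 arrays) did not pass (limma adjusted p 0.178) and turned to 0.05 without the 0 h control. At 4 h the IL-6 array exceeded the control by 0.57 log2, a single pair with no test.

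Itgav, on chromosome 2 (83722303 to 83806917), encodes the alpha chain of vitronectin receptors, and Itgb5, on chromosome 16 (33829665 to 33949338), encodes one of its beta chains. Itgav was lowest at 11.95, had a median of 12.13 and was highest at 12.24 with IL-6 plus HGF, and was 12.06, 11.87, 11.88 and 11.90 with IL-6 at 1 to 4 h. It was 11.85 in the -5 h control and 12.15, 12.27, 12.19, 11.74 and 12.14 in the later controls. The IL-6 arrays lay below the 0 and 4 h controls but above the 12 h control, which was the lowest of the later controls. The IL-6 difference was -0.29 ± 0.11 (4 against 2 arrays, SE from 17 arrays, unadjusted p 0.0196, limma adjusted p 1). The change of effect after HGF was 0.38 ± 0.14 (SE, 17 arrays, unadjusted p 0.0143, limma adjusted p 0.459), where 0 of the 8 passed against 0.0220% of all genes. Without the 12 h control the change was 0.24. IL-6 alone was sampled only at 1 to 4 h, so in this change HGF and a longer time since IL-6 cannot be told apart. With the mean of all 5 probe sets, dim ones included, the IL-6 difference was -0.08. The 3 brighter probe sets gave -0.29 to -0.03 for IL-6 and 0.35 to 0.44 for the change of effect. At the matched hours they gave 0.16 to 0.35, and 0 passed in any of these. They correlated with each other at 0.25 to 0.78.

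Itgb5 was lowest at 10.37, had a median of 10.48 and was highest at 10.73 with IL-6 plus HGF, and was 10.19, 10.22, 10.33 and 10.42 with IL-6 at 1 to 4 h. It was 10.39 in the -5 h control and 10.22, 10.24, 10.35, 10.48 and 10.58 in the later controls. The later controls were higher at later hours, with a slope of 0.08 ± 0.03 log2 per doubling of the hour plus 1 (SE, 5 arrays) that did not pass (unadjusted p 0.0426, limma adjusted p 0.206) and was 0.15 without the 0 h control. The groups overlapped, and the 4 probe sets correlated at 0.87 to 0.97. In the control slope 0 of the 8 passed, against 3.61% of all genes.

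**Figure D4:**
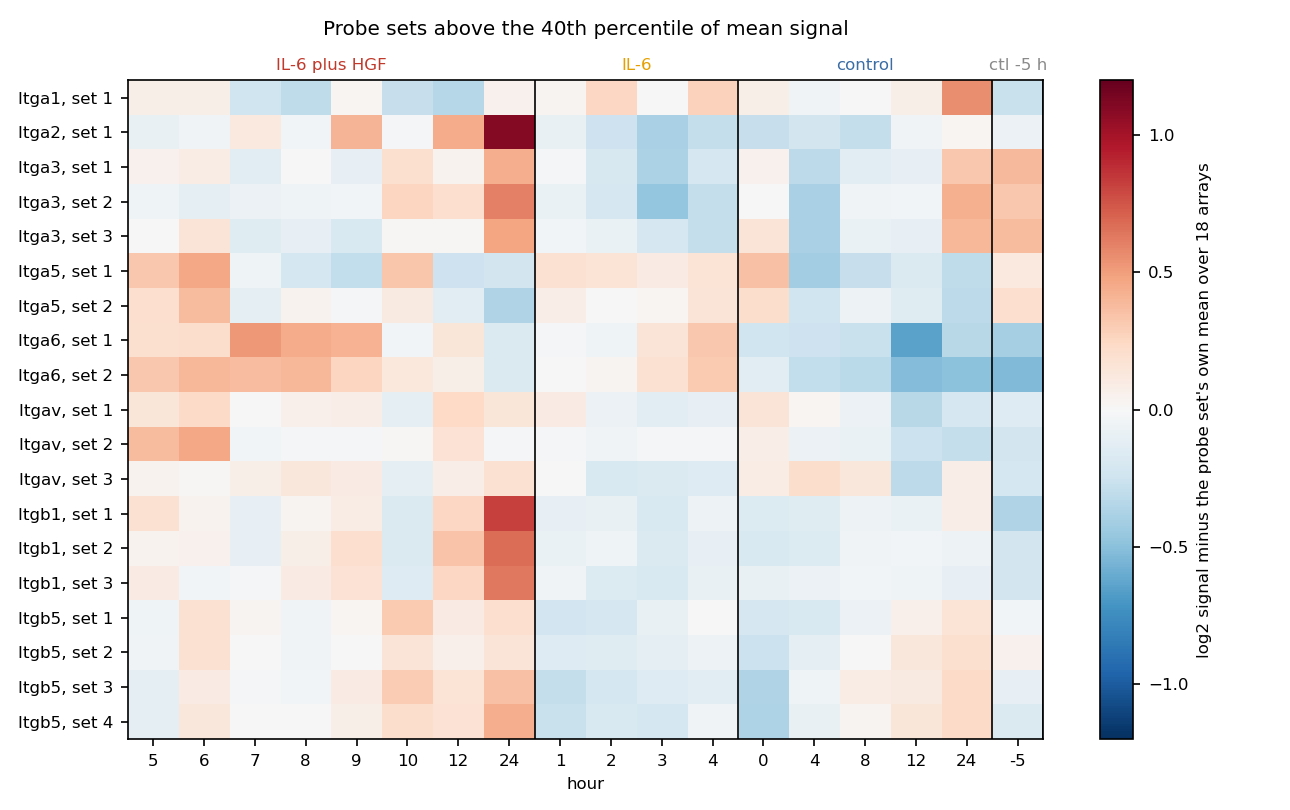
Log2 signal minus each probe set's mean over the 18 arrays (colour) for the 19 integrin probe sets above the dim line (y axis, in order of their identifiers within a gene) in each array (x axis, hour within condition). Itga2 and the 3 Itgb1 probe sets are highest at 24 h of IL-6 plus HGF. Both Itga6 probe sets are higher than in the controls on the IL-6 arrays and up to 12 h of IL-6 plus HGF.

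In order of level, IL-6 plus HGF had the highest mean of the 3 conditions for 6 of the 8 genes (Itga2, Itga3, Itga6, Itgav, Itgb1 and Itgb5). For Itga1 and Itga5 the highest mean was that of IL-6. The means cover different hours, so change with time enters the order, and no share over all genes was taken. Neighbours in that order overlapped in range, except for Itga6 with IL-6 and in the controls, for both of its probe sets. By brightest probe set, no member lay wholly below the 5 later controls with IL-6 (3.19% of all genes did). With IL-6 plus HGF none lay wholly above (1.28%) or below them (1.97%), though the second Itga6 probe set did lie wholly above them. The -5 h control, which by its hour precedes the change of medium given above, was compared with the 5 later controls. Of the 8 genes 0 passed, with 0 at an unadjusted p under 0.05. Among all genes 0% passed, and 1019 had an unadjusted p under 0.05. Over all probe sets 2 of 27 passed at the matched hours (4.75% of all probe sets) and 4 of 27 in the slope under IL-6 plus HGF (5.70%), 1 of which was a dim Itgb1 probe set. In the others 0 of 27 passed, against 0.0266% of all probe sets for IL-6, 0.0111% for the change of effect after HGF, 0.0155% for the slope difference, 2.17% for the control slope and 0% for the -5 h control.

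Genes whose values followed a member most closely over the 18 arrays were named as a description, since arrays share times and stimuli. For Itga2 they were Glod5 (r = 0.957) and Spcs3 (0.927), and Spcs3 (0.921) with Cdk2 (0.915) for Itgb1. For Itga6 they were Ibtk (0.933) and Cd14 (0.926), for Itga3 Nap1l1 (0.924) and Ube2q1 (0.897), and for Itga1 Bmp4 (0.835) and Tubgcp2 (0.834). Itga5 had Lrp10 (0.923) and Borcs6 (0.919), Itgav had Cbl (0.864) and E2f3 (0.834), and Itgb5 had Limd1 (0.92) and Flot2 (0.892). Among the 8 themselves the next closest pairs were Itga2 with Itga3 (0.69) and Itga3 with Itgb5 (0.61), and the lowest was Itga5 with Itgav (-0.42).

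The other genes of cell-matrix adhesion were described by 4 lists. At the matched hours 2.53% of all genes passed higher and 6.46% lower, to be read beside the counts of each list. Of 16 other integrin subunits 0 passed at the matched hours, with a median of 0.07 log2; the smallest p belonged to Itgam, the alpha chain of a leucocyte integrin (0.22, limma adjusted p 0.199), and Itga10 (0.20, limma adjusted p 0.203). Of 35 integrin activators and adhesion adaptors 4 rose and 0 fell, with a median of 0. These were Tns3, a tensin that links integrins to actin (0.59, limma adjusted p 0.00855), Lims1, an adaptor bound to integrin-linked kinase (0.54, 0.0281), Fermt2, a kindlin (0.42, 0.0216), and the kinase Src (0.36, 0.0479). At 8, 12 and 24 h Tns3 was 10.58, 10.51 and 10.57 with IL-6 plus HGF, against 9.95, 9.85 and 10.08 in control, and it passed with each pair left out. Lims1, Fermt2 and Src passed with none of the pairs left out (highest limma adjusted p 0.089, 0.106 and 0.203).

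Of 17 membrane partners of integrins 4 rose and 0 fell at the matched hours, with a median of 0.05. Of all genes 2.53% rose and 6.46% fell. At 8, 12 and 24 h Cd44, a hyaluronan receptor, was 10.07, 10.32 and 11.31 with IL-6 plus HGF, against 9.41, 9.18 and 10.17 in control (0.98, limma adjusted p 0.00611), and passed with each pair left out, although 1 of its 4 probe sets was negative. The others were Sdc4, a syndecan that acts with fibronectin receptors (0.56, 0.0232), Plaur, the urokinase receptor (0.42, 0.0269), and Ddr1, a collagen-binding receptor kinase (0.33, 0.0406). Sdc4 passed in 1 of 3 fits with a pair left out, and Plaur and Ddr1 in 0 of 3. Of 35 matrix ligands 4 rose, 1 fell and the median was 0.02. The fibrinogen chains Fga (0.81, limma adjusted p 0.00587) and Fgb (0.58, 0.00813), known acute-phase genes, and the matricellular gene Ccn2 (0.60, 0.00686) passed with each pair left out, while Tnc, encoding tenascin C (0.56, 0.0463), and Col18a1, a basement-membrane collagen (-0.73, 0.0169), passed in 1 of 3. With no hour block Tns3 passed (limma adjusted p 0.0466), and the other 12 genes named here as passing did not (0.0538 to 0.514).

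**Figure D5:**
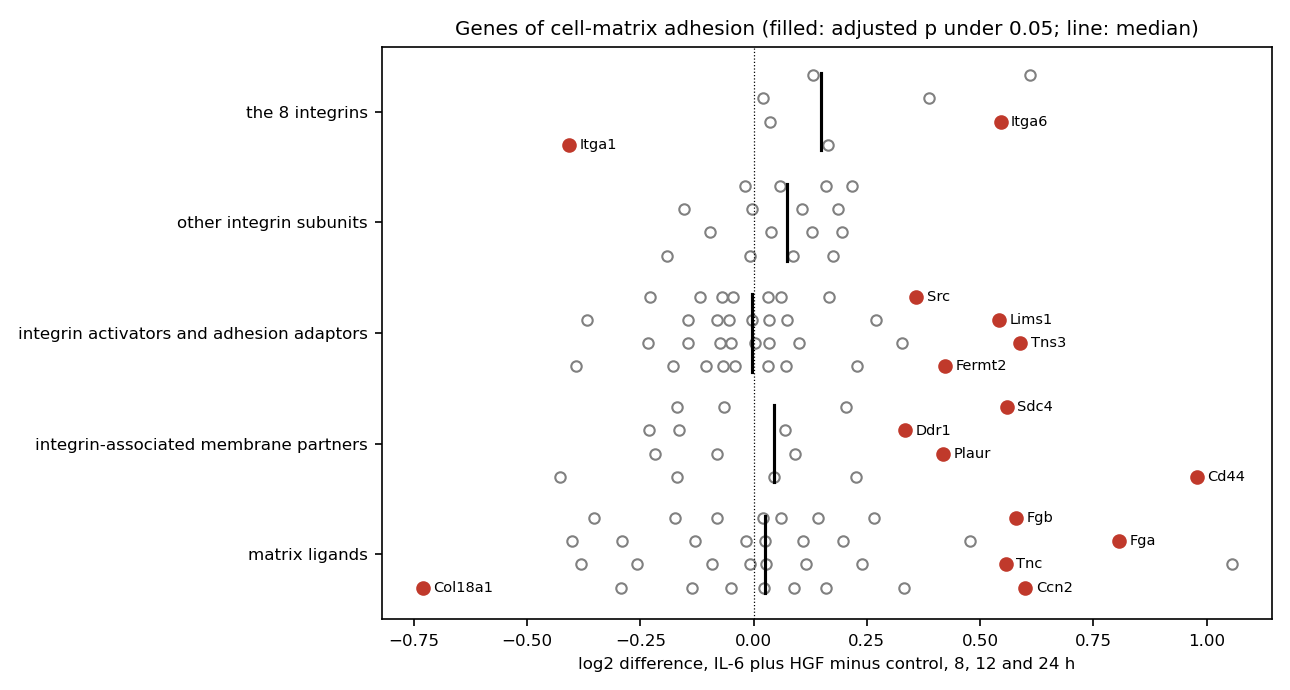
Log2 difference, IL-6 plus HGF minus control at 8, 12 and 24 h (x axis), for each measured gene of 5 lists (rows; vertical position within a row only separates points). Filled red points passed an adjusted p of 0.05 and are named, and black lines are list medians, which lie between 0 and 0.15.

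In the IL-6 comparison 0 genes of these 4 lists passed, against 0.0220% of all genes. The smallest p belonged to Itgam (-0.51) and Itgb2 (-0.25), both leucocyte integrin chains, and to the adaptors Lpp (-0.42) and Lims2 (-0.19). Among partners and ligands it belonged to Sdc4 (0.37) and Sdc1 (0.14), and to Fgb (0.41) and Fga (0.70). All had a limma adjusted p of 1 except Fgb (0.914). Kupffer cell markers, 3 of 13 dim (Cd163, Timd4 and Fcgr1), had a median of -0.50 in that comparison, with 12 of 13 negative and 0 past the threshold; their average was 6.92 to 7.09 with IL-6, 7.07 in the -5 h control and 6.88 to 7.58 in the later controls. Their part in the values of Itgam and Itgb2 was not tested. In the slope under IL-6 plus HGF, where 6.27% of all genes rose and 4.84% fell, 0 of 16 other subunits passed, 2 of 35 activators and adaptors rose and 2 fell, 4 of 17 partners rose and 3 fell, and 5 of 35 matrix ligands rose and 7 fell.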

How the data were processed

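RNA of 18 cultures was biotin-labelled with a one-cycle kit and hybridised to Affymetrix arrays, per the labels' protocols. Each array was deposited as log2 signals of 45101 probe sets (2.095 to 15.049), per the labels. How the authors summarized and normalized them is not given in the sources used here. Once sorted, each array lay within 0.118 of the mean of all, and no further scaling was applied. All columns matched a sample (0 left over).

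Probe sets were named from the platform annotation: 34958 had 1 symbol, 932 several and 9211 none, with 64 control probe sets left out of the tests. Each gene took its probe set of highest mean, which left 18193 genes. The members, gene lists and tests were chosen with earlier results of these data known. Groups came from the stimulus and hour in the labels.

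Fits used limma 3.58.1 in R 4.3.3 (lmFit, eBayes); p-values were adjusted by Benjamini-Hochberg over all genes, or over 45037 probe sets, with 0.05 as the limit. The IL-6 comparison (controls at 0 and 4 h) and the change of effect after HGF used 17 arrays as 4 cells. Their SE came from the spread within all 4 cells, so different hours served as replicates and change with time counted as spread. The matched hours used 6 arrays with hour as a block, leaving 2 residual degrees of freedom. Slopes used log2 of the hour, or of the hour plus 1 in the 5 controls. The lone -5 h control was assumed to vary like the later controls. Named genes were the 8 integrins, from each list up to 4 passing genes per direction at the matched hours and in the IL-6 comparison (2 of smallest p where none passed), and the 2 genes most correlated with each integrin, clone and model names left out. Single cell type markers that passed, and Malat1, were named beside them after their values were seen. Alternatives were quantile normalization, median centring, a filter at the 40th percentile, the mean of a gene's probe sets, robust variance with an intensity trend, other choices of arrays and covariates (splines 4.3.3, with 3 degrees of freedom) and leaving out each array or pair. The fits were tested on simulated data. The number of arrays limits the precision.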

Additional observations from a re-analysis of the deposited data

Results flagged for a closer look

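Among 24 groups of 4 to 8 arrays, 1 for each integrin and condition, 4 held an array far from the others of its group; by chance about 1 in 20 groups would. Itga2 was 7.39 at 24 h of IL-6 plus HGF, 0.66 above the next array of that group. Itga1 was 7.6 in the 24 h control, where the next highest control was 7.11. Itgav was 12.06 at 1 h of IL-6, where the next highest was 11.9, and 11.74 in the 12 h control, where the next lowest was 12.14. Hours differ within each group, so an array that stands apart and a change with time cannot be told apart.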

How the results depend on the processing

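At the matched hours the count of integrin genes past the threshold was 2; it was 3 with dim genes left out, with an intensity trend and robust variance and with a spline of the hour, 1 with the mean of all probe sets, 0 with no hour block, 1 with 4 cells of 17 arrays, and 0 to 1 with a pair left out. Over all genes the count of 1637 became 142 with no hour block, 3152 with the spline, and 843, 585 and 759 without the 8, 12 and 24 h pair. The slope count under IL-6 plus HGF was 3, was 4 in 4 settings (quantile normalization, dim genes left out, robust variance, hour not logged) and 2 with the mean of all probe sets, became 0 with the 24 h array left out, and ranged from 0 to 4 over arrays left out; over all genes 2020 became 244 without the 24 h array and 3095 without the 10 h array. Over all probe sets the matched-hours count of 2 became 1 with quantile normalization. The counts of 0 in the other 5 comparisons held in every setting run. Over all genes the slope difference, 18 genes, ranged from 0 to 46, the control slope, 657 genes, from 23 to 1685, IL-6, 4 genes, from 3 to 22, and the change of effect, 4 genes, from 0 to 26.

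Of 443 values of single named genes under other settings, 366 kept direction and side of the threshold, 64 lost a call, 11 gained one and 2 changed sign. Those 2 were Itga3 at the matched hours, -0.025 with 4 cells of 17 arrays, and the control slope of Itga5, 0.051 without the 0 h control (range -0.164 to 0.051 over arrays left out). For 37 other results of the integrins, 45 of 604 values changed sign. These were set apart after the data were seen (limma unadjusted p of 0.05 or more, and no setting that passed), so that 0 passed follows from the rule. Some settings cannot change an estimate: the dim filter, the robust variance and, in the IL-6 comparison, leaving out an array outside the compared means. Counts of values that kept direction, here and among the 443, thus overstate stability. The causes were not tested. With 3 pairs and 1 array per hour, small differences could not be resolved, and the signal of Itga2 lay close to the dim line.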
